A study of Homo sapiens with 9 samples.

Results

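The RNA of 58 genes that encode subunits of RNA polymerase II (12 genes), of the Mediator complex (29 genes) and of factors that act on the polymerase during elongation (17 genes) was followed in A549, an established lung cancer cell line, after depletion of Cyclin K. The members were chosen by symbol, as every listed gene named POLR2A to POLR2L or MED followed by a number, with 17 named elongation factors added. They are 58 of 31080 genes or joined genes that the 9 libraries list. Of the 59 known symbols that fit, MED26 was not analysed here. The 3 siCtrl libraries came from A549 cells given a control siRNA that the paper calls scrambled, and 3 libraries each came from cells given siCyclin K#1 or siCyclin K#2, each a single siRNA against Cyclin K, for 48 h. All 3 groups were thus transfected cells of 1 line. The labels do not say whether libraries of a group came from separate transfections, so p-values measure only the spread between these libraries, which may be technical. Levels are given as FPKM, fragments adjusted for gene length and library depth, so that levels of different genes can be compared.

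RNA polymerase II transcribes the protein-coding genes of the nucleus, and its largest subunit carries a long C-terminal tail of repeated heptapeptides, the CTD. Mediator, built of head, middle and tail modules on the scaffold MED14, links transcription factors to the polymerase at promoters, and a separable kinase module controls that contact. After initiation the polymerase is held by DSIF and NELF and then travels with the PAF1 complex, SUPT6H and the histone chaperone FACT, while Cyclin K activates CDK12 and CDK13, kinases that phosphorylate the CTD.

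CCNK, the gene of Cyclin K, fell from an FPKM of 7.02 ± 0.107 (SD, n = 3) with siCtrl to 0.809 ± 0.0857 (SD, n = 3) under the first siRNA and 0.844 ± 0.0661 (SD, n = 3) under the second, which left 11.5% and 12.0% of its level. Scaled by exon length, 78.092% of the values above 0 came within 0.05 of a whole number of reads, and the depth estimated from these steps was 31333749 to 33767961 reads per library. The A549 and epithelial markers KRT8 (49.7 to 105), KRT18 (69.8 to 91.0) and ALDH1A1 (529 to 982) were present in every library, while EPCAM was at 0 to 0.279. Of the leukocyte, endothelial and fibroblast markers, PTPRC, PECAM1, CDH5 and VWF stayed at or below 0.043, and CD3E and MS4A1 were not listed. The summed FPKM of the 4 fibroblast markers (COL1A1, DCN, LUM, PDGFRA) was 5.58 to 6.37 with siCtrl, 19.8 to 22.0 with siCyclin K#1 and 7.66 to 7.90 with siCyclin K#2, with COL1A1 at 1.79 to 14.7 and PDGFRA at 3.40 to 4.78 over all libraries. The summed leukocyte markers, nearly all CD68, were at 30.0 to 30.7, 31.0 to 33.7 and 37.0 to 39.0 in the 3 groups in that order, and the 7 epithelial and A549 markers at 1030 to 1050, 1120 to 1200 and 1260 to 1400. The part of these shifts in the results below was not tested. In such bulk RNA, fewer cells of a type and less RNA per cell cannot be told apart.

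All 58 members were expressed and passed the filter on low values. With siCtrl they ranged from an FPKM of 0.445 ± 0.0385 (SD, n = 3) for MED12L to 99.5 ± 37.2 (SD, n = 3) for POLR2L. POLR2L, the small subunit shared by the nuclear RNA polymerases, stood first, but its libraries reached down to 56.6 and so overlapped POLR2A (74.4 ± 2.03, n = 3). Below POLR2A came SSRP1 of FACT (67.7), LEO1 of the PAF1 complex (49.3), SUPT16H of FACT (41.9) and POLR2G (38.3), whose libraries did not overlap their neighbours. The polymerase was uneven from subunit to subunit: POLR2G, which forms the stalk of the enzyme with POLR2D, stood at 38.3 ± 1.07 (SD, n = 3) and POLR2D at 4.08 ± 0.146 (SD, n = 3). Among Mediator genes MED10 was highest (22.5), followed by MED13 and MED4 (13.1). The paralogs of the kinase module were also uneven, with MED12 at 6.71 and MED12L at 0.445, while MED13 (14.4) and MED13L (12.2) were close.

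**Figure D1:**
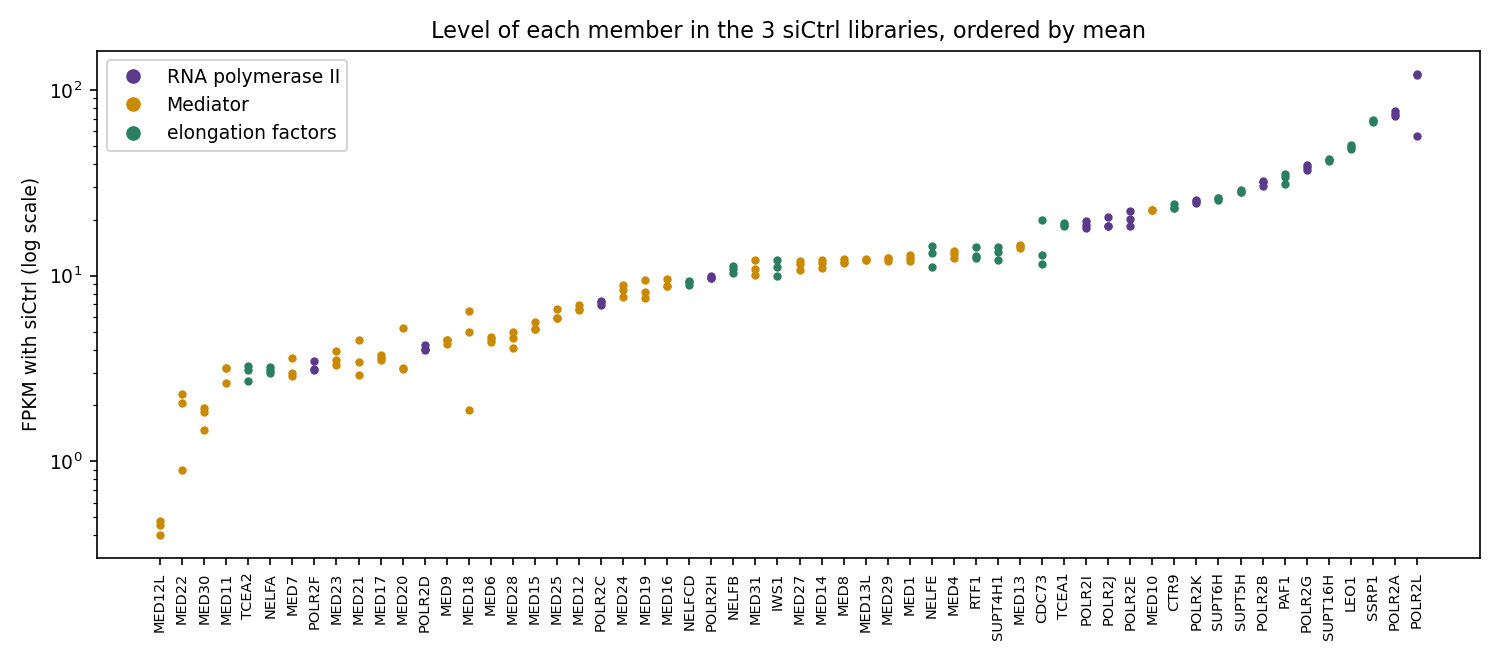
FPKM of each of the 58 members in the 3 siCtrl libraries (1 point per library) on a log scale, ordered by mean and coloured by complex. Polymerase and elongation genes fill the upper end, MED12L stands apart at the lower end, and the widely spaced points of POLR2L, MED18 and MED22 show libraries of 1 group that differ.

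Promoter sequences from RefSeq (GRCh38.p14), matched by symbol, were found for 44 of the 58 members. Within the 250 bases before the start, the longest run outside any exon annotated in GENCODE 29 is shown for 3 members that rose with both siRNAs, POLR2D, MED11 and IWS1, and for 1 that fell, MED15, because these members carry the changes described below. Each is read 5′ to 3′ on the strand of its gene, with capitals for matches on either strand to TATAAA (the TATA box), CCAAT (bound by NF-Y), GGGCGG (a GC box), CCGGAAG (a site of ETS factors) and GCGCATGC (part of an NRF1 site).
POLR2D (chr2:127858158-127858405, minus strand): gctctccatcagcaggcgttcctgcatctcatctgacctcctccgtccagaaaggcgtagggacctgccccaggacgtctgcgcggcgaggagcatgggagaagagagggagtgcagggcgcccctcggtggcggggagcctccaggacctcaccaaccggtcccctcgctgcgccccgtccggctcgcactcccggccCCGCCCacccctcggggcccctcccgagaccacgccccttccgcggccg
MED11 (chr17:4731178-4731427, plus strand): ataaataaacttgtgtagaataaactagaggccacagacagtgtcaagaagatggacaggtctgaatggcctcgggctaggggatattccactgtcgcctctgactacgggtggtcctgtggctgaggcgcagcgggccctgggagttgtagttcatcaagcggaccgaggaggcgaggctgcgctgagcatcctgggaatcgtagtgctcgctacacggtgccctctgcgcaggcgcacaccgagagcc
IWS1 (chr2:127526490-127526635, minus strand): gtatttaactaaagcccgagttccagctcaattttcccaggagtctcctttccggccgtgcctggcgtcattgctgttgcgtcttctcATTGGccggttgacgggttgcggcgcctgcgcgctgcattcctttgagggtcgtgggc
MED15 (chr22:20507360-20507540, plus strand): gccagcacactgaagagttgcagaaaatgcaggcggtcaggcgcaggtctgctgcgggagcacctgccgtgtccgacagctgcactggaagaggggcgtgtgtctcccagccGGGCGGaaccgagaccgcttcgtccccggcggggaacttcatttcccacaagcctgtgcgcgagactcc
The IWS1 and MED15 stretches precede RefSeq starts that lie inside the span GENCODE gives these genes. Outside the bases shown, MED15 held CCGGAAG 2 times, both on the opposite strand, and POLR2D and MED11 held it past the start, at base 15 and base 2 of the gene. Over the whole stretch from 250 bases before to 50 after the start, CCGGAAG was found in 16 of the 44 promoters of members (36.4%) against 10.7% of 27305 promoters in the table. GGGCGG was found in 63.6% against 44.6%, GCGCATGC in 11.4% against 3.27%, CCAAT in 25.0% against 35.7% and TATAAA in 4.55% against 12.0%. Members that rose and members that fell both held CCGGAAG (POLR2D, MED11, SUPT16H among the first, MED15, MED7, NELFE among the second). These matches describe the letters only, and the median GC content was 60.7% for the members and 58.3% for all promoters. The 27305 promoters were not narrowed to expressed or protein-coding genes, so whether these shares are particular to the members was not tested.

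The first question was which of these genes differed between siCtrl and both siRNAs combined, 3 libraries against 6. The members split about evenly: 14 rose and 13 fell at an adjusted p under 0.05, and 31 did not pass. This is 46.6% of the members, beside 28.6% of all 21048 genes tested (17.0% higher, 11.5% lower) and 42.0% of those whose mean FPKM reached 1, so the share of members that moved was near that of other well-expressed genes. With a fold change over 1.5 as well, 6 rose (POLR2D, NELFB, MED11, MED30, IWS1, TCEA2) and 5 fell (POLR2L, POLR2G, MED8, MED15, MED12L), beside 18.0% of all genes (11.6% higher, 6.49% lower). No member passed a fold change over 3 with p under 0.01, the rule stated in the study's methods, which 2.29% of all genes passed. The median log2 fold change of the members was -0.0027, and that of all genes 0.0618. In 30 members the 6 siCyclin K libraries did not overlap the 3 siCtrl libraries, 16 above and 14 below, against 32.6% of all genes.

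Taken one by one, siCyclin K#1 moved 41 members (21 up, 20 down) and siCyclin K#2 moved 33 (18 up, 15 down). Of all genes, 44.8% passed with siCyclin K#1 (26.8% higher, 18.1% lower) and 34.9% with siCyclin K#2 (19.8% higher, 15.2% lower), and where the mean FPKM reached 1, 64.3% and 53.5%. Both siRNAs called 27 members in common, of which 14 rose with each, 12 fell with each and 1, TCEA1, moved in opposite directions. A further 14 passed with siCyclin K#1 only, 6 with siCyclin K#2 only and 11 with neither, counts of calls that do not test a difference between the siRNAs. These comparisons share the siCtrl libraries, so calls in common are not independent. The shares of all genes called by both siRNAs, by 1 only or by neither are not given here. Whether the counts of members are unusual was therefore not tested. At a fold change over 1.5, 9 rose and 10 fell with siCyclin K#1 (27.6% of all genes, 17.8% higher and 9.8% lower), and 6 rose and 5 fell with siCyclin K#2 (17.6%, 10.6% higher and 7.0% lower). For siCyclin K#1 that split became 4 up and 15 down after median-ratio rescaling and 5 up and 12 down after quantile normalization, and for siCyclin K#2 it became 4 up and 6 down after quantile normalization. The median of all genes with siCyclin K#1 was 0.102 as deposited and 0.001 after median-ratio rescaling, a shift to be kept in mind for small changes. No member passed a fold change over 3 with p under 0.01 with either siRNA, against 4.67% and 1.94% of all genes.

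**Figure D2:**
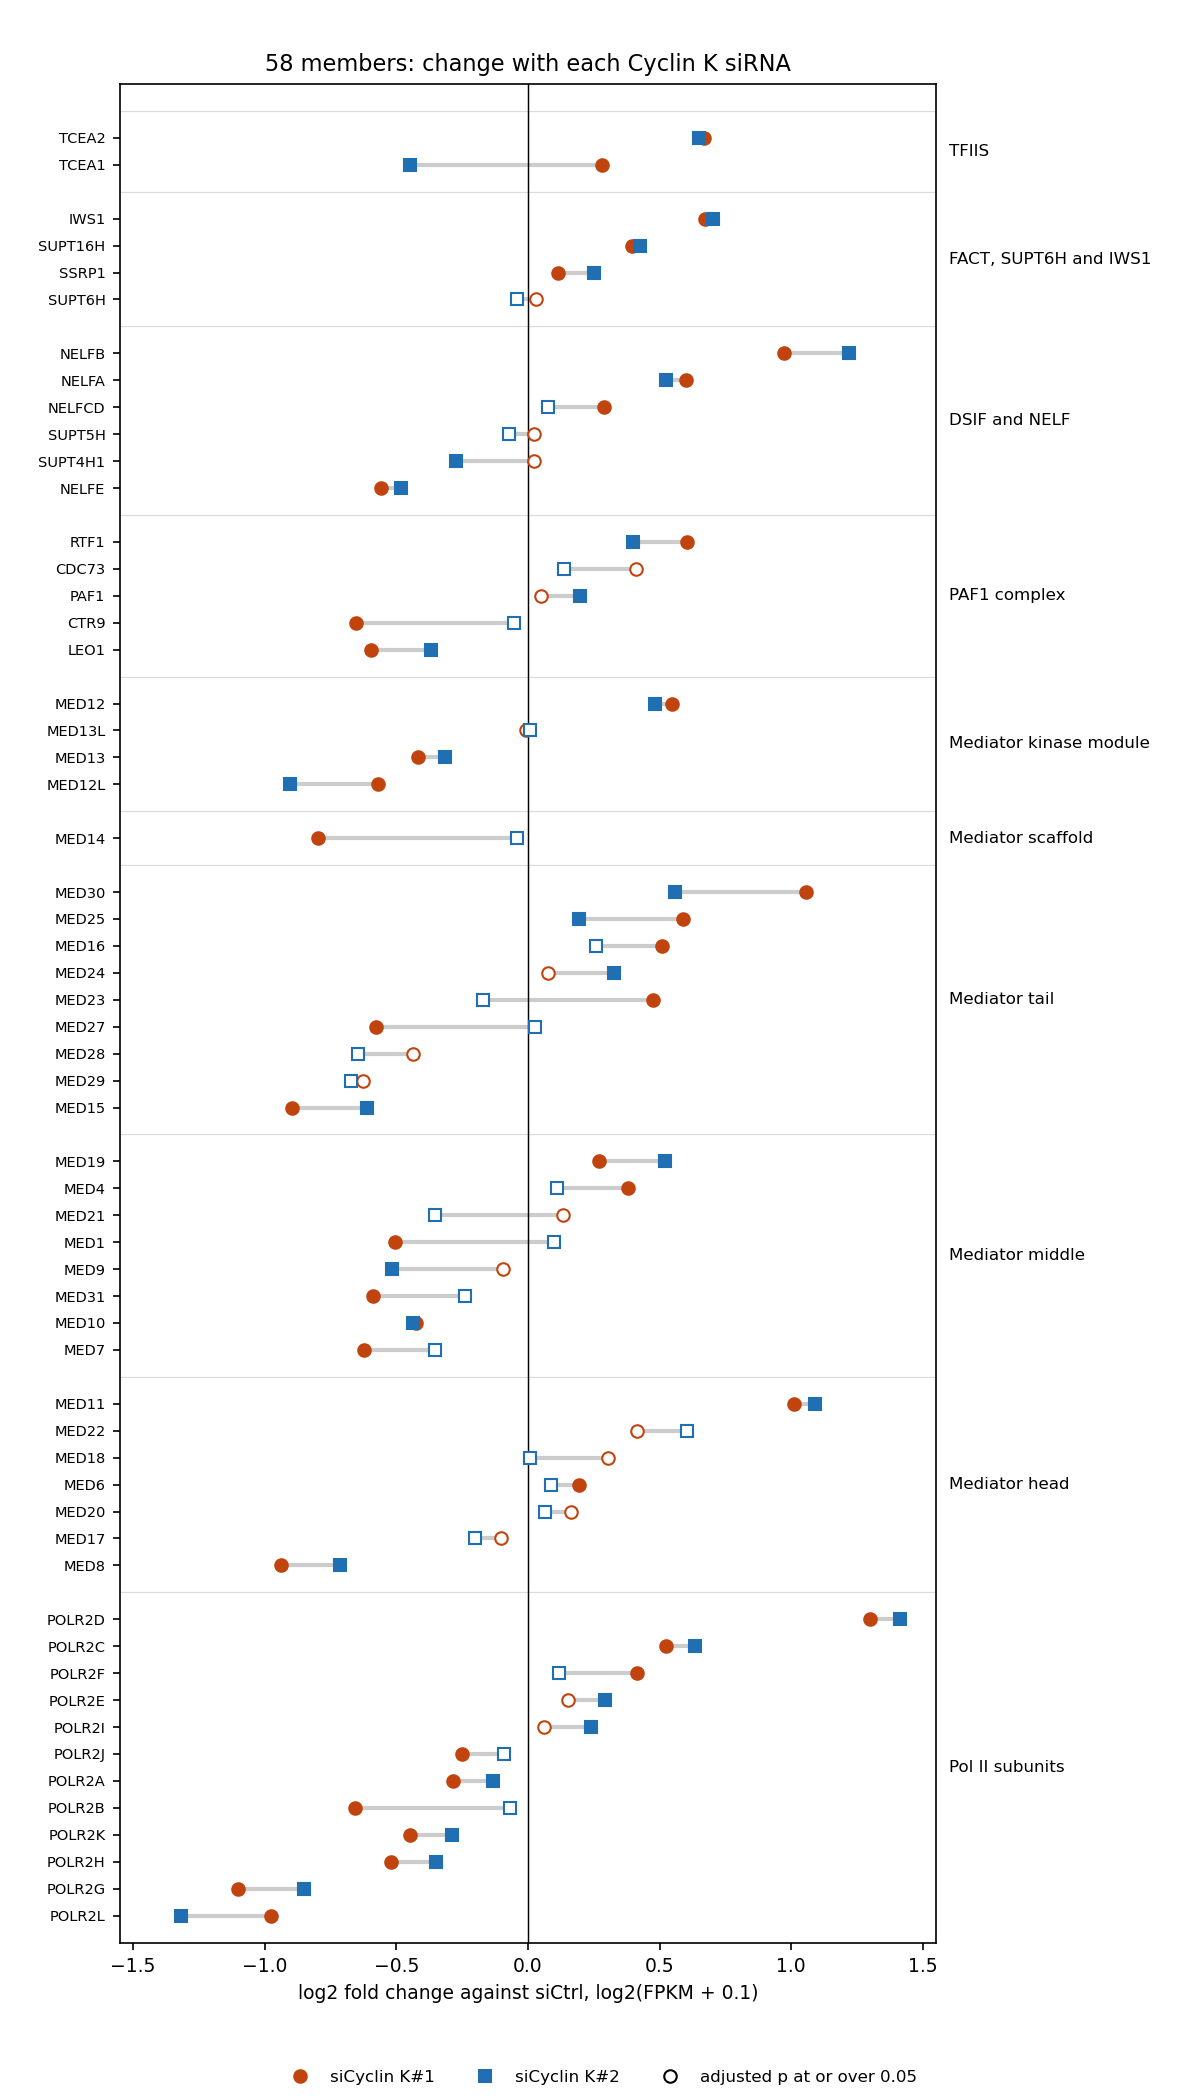
Log2 fold change of each of the 58 members against siCtrl with siCyclin K#1 (circles) and siCyclin K#2 (squares), on the scale of log2(FPKM + 0.1), grouped by role. Filled marks have an adjusted p under 0.05, grey lines join the siRNAs of a gene, and rises and falls stand side by side in most complexes.

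Of the 12 polymerase genes, 2 rose and 5 fell with both siRNAs combined. The share called was 58.3%, beside 28.6% of all genes tested (17.0% higher, 11.5% lower) and 42.0% of those whose mean FPKM reached 1. POLR2D (ENSG00000144231, chromosome 2, 127843551 to 127858157, GRCh38), the RPB4 subunit of the stalk, had an FPKM of 4.01, 4.24 and 3.97 with siCtrl, 9.82, 9.97 and 10.7 with siCyclin K#1, then 10.7, 10.6 and 11.8 with siCyclin K#2. All 6 siCyclin K libraries lay above all siCtrl libraries, by the largest fold of any member (log2 fold change 1.35 ± 0.074 (SE), adjusted p = 2.1e-06, a fold of 2.56). POLR2G (ENSG00000168002, chromosome 11, 62761544 to 62766710), the RPB7 subunit that pairs with it, went the other way, with 37.2, 39.3 and 38.4 with siCtrl, 17.4, 18.5 and 17.4 with siCyclin K#1, then 21.8, 21.2 and 20.6 with siCyclin K#2. Every siCyclin K library stood far below siCtrl, a 1.97-fold drop (log2 fold change -0.98 ± 0.087 (SE), adjusted p = 3.8e-05).

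These partners were also set against each other in each library. The FPKM of POLR2G was 9.27, 9.27 and 9.68 times that of POLR2D with siCtrl, 1.78, 1.86 and 1.62 times with siCyclin K#1, while siCyclin K#2 gave 2.05, 2.00 and 1.75 times. The mean ratio fell from 9.40 ± 0.235 (SD, n = 3) to 1.75 ± 0.120 and 1.93 ± 0.162 (SD, n = 3 each), with no overlap of the siCtrl and siCyclin K libraries. This ratio pairs a gene that fell with a gene that rose, so its shift follows from their changes. It was chosen after the values were seen and has no test of its own. Exons of POLR2D share 8.71% of their bases with other annotated genes, a pseudogene on the same strand among them.

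**Figure D3:**
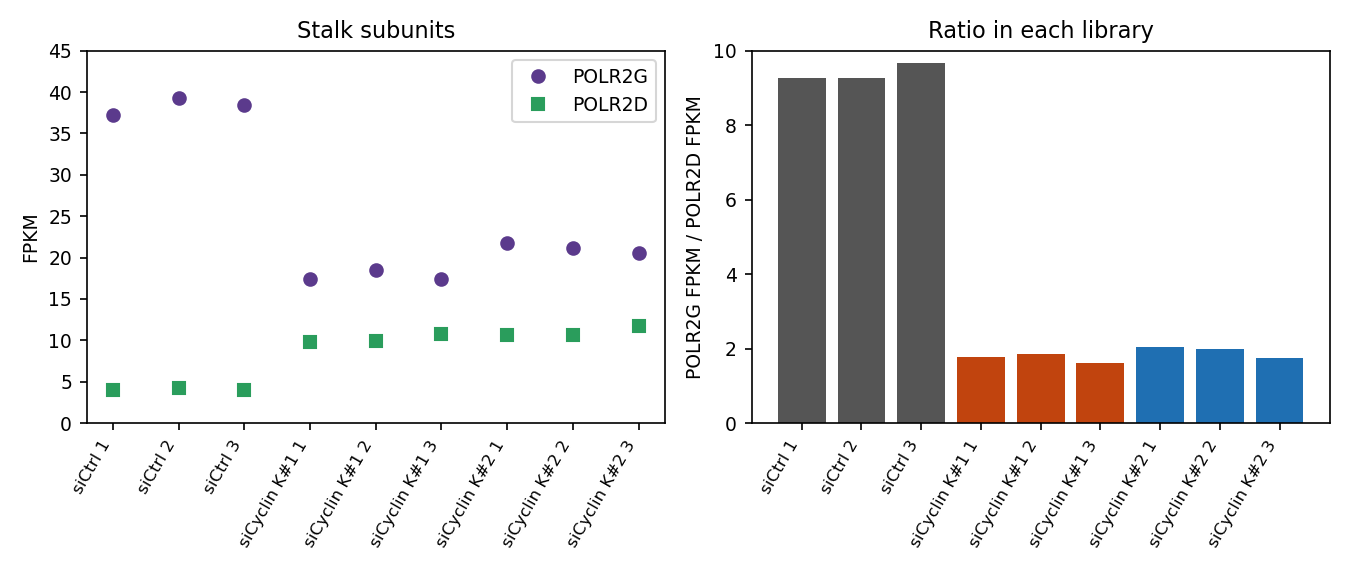
FPKM of the stalk subunits POLR2G and POLR2D in each of the 9 libraries (left) and their ratio in each library (right, bars from 0). The ratio is above 9 in the siCtrl libraries and at or below 2.05 in the siCyclin K libraries.

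Over both siRNAs the catalytic core had smaller values. POLR2A, the largest subunit and the bearer of the CTD, had an FPKM of 74.1, 76.6 and 72.5 with siCtrl, 60.1, 61.7 and 61.4 with siCyclin K#1, then 68.3, 67.2 and 68.1 with siCyclin K#2. Its siCyclin K libraries lay below siCtrl with each siRNA, by a small amount (log2 fold change -0.21 ± 0.060 (SE), adjusted p = 0.027). That call was lost without each siCtrl library in turn (adjusted p = 0.083, 0.11 and 0.062), while the change with siCyclin K#1 alone was log2 fold change -0.28 ± 0.029 (SE), adjusted p = 5.4e-05. POLR2B, the second catalytic subunit, had 32.5, 30.3 and 32.0 with siCtrl, 19.6, 20.3 and 20.1 with siCyclin K#1, then 30.5, 28.4 and 31.7 with siCyclin K#2. It fell with siCyclin K#1 (log2 fold change -0.66 ± 0.047 (SE), adjusted p = 6.1e-06) and was near siCtrl with siCyclin K#2 (log2 fold change -0.067 ± 0.047 (SE), adjusted p = 0.33), and the siRNAs themselves differed (log2 fold change -0.59 ± 0.047 (SE), adjusted p = 3.3e-05). Its exons share 12.4% of their bases with genes on the opposite strand, and whether the authors counted by strand is not given in the sources used here.

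POLR2C, the RPB3 subunit of the assembly platform, had an FPKM of 7.23, 6.96 and 7.33 with siCtrl, 10.1, 10.5 and 10.6 with siCyclin K#1, then 11.4, 11.0 and 11.1 with siCyclin K#2. It stood higher in all siCyclin K libraries (log2 fold change 0.58 ± 0.064 (SE), adjusted p = 0.00013), but its feature joins COQ9 and a noncoding gene, whose reads cannot be told apart from its own. The shared subunits POLR2H and POLR2K fell with both siRNAs (log2 fold change -0.43 ± 0.086 (SE), adjusted p = 0.0041; log2 fold change -0.37 ± 0.066 (SE), adjusted p = 0.0023). POLR2E, POLR2F, POLR2I and POLR2J did not pass with both siRNAs together, with log2 fold changes from -0.17 for POLR2J to 0.27 for POLR2F. Of these, POLR2F and POLR2J passed with siCyclin K#1 and POLR2E and POLR2I with siCyclin K#2, while the direct test between the siRNAs passed for POLR2F (adjusted p = 0.017) and not for POLR2J (adjusted p = 0.14), POLR2E (adjusted p = 0.16) or POLR2I (adjusted p = 0.059). After median-ratio rescaling that difference no longer passed for POLR2F and passed for POLR2I and POLR2J. Exons of POLR2I share 79.6% of their bases with genes on the opposite strand, which bears on its value if strand was not used. POLR2J has near-identical gene copies among which reads could be split, so its value is uncertain.

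POLR2L had an FPKM of 56.6, 120 and 122 with siCtrl, 72.5, 40.4 and 37.0 with siCyclin K#1, then 34.8, 44.0 and 34.7 with siCyclin K#2. The siCtrl library at 56.6 lay below the siCyclin K#1 library at 72.5, so the groups overlapped, and the fitted fall was wide in its error (log2 fold change -1.15 ± 0.29 (SE), adjusted p = 0.015). Without siCtrl replicate 2 or 3 it did not pass (adjusted p = 0.074 each), and its exons share 22.5% of their bases with CD151 on the opposite strand. With siCyclin K#1 alone the call of POLR2L (adjusted p = 0.043) was lost after quantile normalization (adjusted p = 0.069). It was also lost without siCtrl replicate 2 or 3 (adjusted p = 0.13 each). Summed over the 12 subunits, FPKM was 352 ± 33.9 with siCtrl, 257 ± 19.3 and 276 ± 2.66 with the siRNAs (SD, n = 3 each), a sum in which POLR2L and POLR2A weigh most.

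In Mediator, 5 genes rose, 6 fell and 18 did not pass with both siRNAs together. The share called was 37.9%, beside 28.6% of all genes tested (17.0% higher, 11.5% lower) and 42.0% of those whose mean FPKM reached 1. The head module, which contacts the polymerase, held the largest rise and the largest fall of the complex. MED11 (ENSG00000161920, chromosome 17, 4731428 to 4733610) had an FPKM of 3.17, 3.17 and 2.63 with siCtrl, 5.84, 5.60 and 6.94 with siCyclin K#1, then 6.09, 6.08 and 7.25 with siCyclin K#2. All 6 siCyclin K libraries were above siCtrl (log2 fold change 1.05 ± 0.11 (SE), adjusted p = 8.5e-05, a fold of 2.07). MED11 shares 36.9% of its exon bases with genes on the opposite strand, mainly an antisense RNA, which bears on its value if strand was not used. MED8 (ENSG00000159479, chromosome 1, 43383917 to 43389808) had 11.8, 12.3 and 11.8 with siCtrl, 6.21, 6.02 and 6.35 with siCyclin K#1, then 8.04, 6.78 and 6.99 with siCyclin K#2. It fell in every siCyclin K library (log2 fold change -0.83 ± 0.094 (SE), adjusted p = 0.00016, a 1.78-fold drop). Of the other head genes MED6 passed with siCyclin K#1 (log2 fold change 0.19 ± 0.058 (SE), adjusted p = 0.024). That call was lost after median-ratio rescaling and after quantile normalization, and the feature of MED6 also joins other annotated genes. Its difference between the siRNAs did not pass (adjusted p = 0.22). MED17, MED18, MED20 and MED22 did not pass with either siRNA, though MED17 passed with each after median-ratio rescaling.

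The middle module, which joins head and tail and contacts nuclear receptors through MED1, had 1 rise and 2 falls among 8 genes over both siRNAs, none over 1.5-fold. The share called was 37.5%, beside 28.6% of all genes tested and 42.0% of those whose mean FPKM reached 1. With a fold change over 1.5 as well, 18.0% of all genes passed. MED7 was lowest, with an FPKM of 2.87, 3.60 and 2.98 with siCtrl, 2.10, 2.22 and 1.72 with siCyclin K#1, then 2.23, 2.69 and 2.40 with siCyclin K#2. The siCyclin K libraries lay below siCtrl (log2 fold change -0.49 ± 0.14 (SE), adjusted p = 0.026), but the call was lost without siCtrl replicate 2 (adjusted p = 0.12) or 3 (adjusted p = 0.061), and its feature also joins HAVCR2. MED10, with little spread between libraries, fell with each siRNA (log2 fold change -0.43 ± 0.035 (SE), adjusted p = 1.5e-05; log2 fold change -0.44 ± 0.035 (SE), adjusted p = 2.3e-05), and the 95% interval of the difference between the siRNAs was -0.070 to 0.091 on the log2 scale. MED19 was the rise of the module, with 7.57, 9.44 and 8.18 with siCtrl, 10.2, 10.3 and 9.83 with siCyclin K#1, then 11.8, 12.1 and 12.2 with siCyclin K#2. Its siCyclin K libraries were all above siCtrl (log2 fold change 0.39 ± 0.10 (SE), adjusted p = 0.016), a call lost after median-ratio rescaling (adjusted p = 0.069) and without siCtrl replicate 1 (adjusted p = 0.084) or 3 (adjusted p = 0.065).

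On the values as deposited, the remaining middle genes passed with 1 siRNA or with neither. MED31 had 12.1, 10.9 and 10.1 with siCtrl, 8.77, 6.75 and 6.51 with siCyclin K#1, then 10.7, 8.86 and 8.49 with siCyclin K#2. Only siCyclin K#1 gave a call (log2 fold change -0.59 ± 0.13 (SE), adjusted p = 0.0058), the direct difference between the siRNAs did not pass (log2 fold change -0.35 ± 0.13 (SE), adjusted p = 0.081), and 58.3% of its exon bases are shared with TXNDC17 on the opposite strand. After median-ratio rescaling that difference passed (adjusted p = 0.042). The change of MED31 over both siRNAs passed after median-ratio rescaling (adjusted p = 0.047) and quantile normalization (adjusted p = 0.038). MED4 rose with siCyclin K#1 (log2 fold change 0.38 ± 0.053 (SE), adjusted p = 0.00041), MED9 fell with siCyclin K#2 (log2 fold change -0.52 ± 0.072 (SE), adjusted p = 0.00058), and MED21 passed with neither. The siCyclin K#1 libraries of MED9 also lay below siCtrl. After median-ratio rescaling or quantile normalization, MED9 passed with siCyclin K#1 and over both siRNAs as well. MED1 is taken up with the genes that differed between the siRNAs.

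Among the 9 tail genes, which receive transcription activators, 2 rose and 1 fell. The share called was 33.3%, beside 28.6% of all genes tested and 42.0% of those whose mean FPKM reached 1. MED15 (ENSG00000099917, chromosome 22, 20495913 to 20587632), a target of lipid regulators such as SREBP, had an FPKM of 5.17, 5.66 and 5.13 with siCtrl, 2.74, 2.93 and 2.76 with siCyclin K#1, then 3.49, 3.26 and 3.58 with siCyclin K#2. It was lower in all siCyclin K libraries (log2 fold change -0.76 ± 0.11 (SE), adjusted p = 0.00072) and lowest with siCyclin K#1 (log2 fold change -0.29 ± 0.067 (SE), adjusted p = 0.012 between the siRNAs). MED30 had 1.93, 1.48 and 1.84 with siCtrl, 4.18, 3.50 and 3.54 with siCyclin K#1, then 2.90, 2.57 and 2.40 with siCyclin K#2. It rose with both siRNAs (log2 fold change 0.81 ± 0.18 (SE), adjusted p = 0.0077) from a low level, 68 to 94 reads in the siCtrl libraries. MED25, the subunit bound by the viral activator VP16, had 5.92, 6.58 and 5.93 with siCtrl, 9.17, 9.45 and 9.21 with siCyclin K#1, then 6.71, 6.94 and 7.46 with siCyclin K#2. It rose with siCyclin K#1 (log2 fold change 0.59 ± 0.060 (SE), adjusted p = 5.5e-05), while its smaller change with siCyclin K#2 (log2 fold change 0.19 ± 0.060 (SE), adjusted p = 0.035) was lost after quantile normalization (adjusted p = 0.18) and without siCtrl replicate 1 or 3 (adjusted p = 0.11 each). The call over both siRNAs (adjusted p = 0.046) was lost without any one of the siCtrl libraries. Of the other tail genes, MED16 rose with siCyclin K#1 (log2 fold change 0.51 ± 0.13 (SE), adjusted p = 0.011) and did not pass with siCyclin K#2, where its libraries were also above siCtrl, and the direct difference did not pass (adjusted p = 0.19). MED24 rose with siCyclin K#2 (log2 fold change 0.33 ± 0.072 (SE), adjusted p = 0.0069; log2 fold change -0.25 ± 0.072 (SE), adjusted p = 0.029 between the siRNAs), while MED28, whose libraries were uneven, passed with neither.

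The tail is joined to the rest by the scaffold, and the kinase module binds reversibly. MED14, on which the modules are assembled, had an FPKM of 11.7, 11.1 and 12.2 with siCtrl, 6.72, 6.48 and 6.80 with siCyclin K#1, then 10.8, 11.6 and 11.6 with siCyclin K#2, low in the siCyclin K#1 libraries alone. In the kinase module, MED12, which activates CDK8, had 6.54, 6.97 and 6.61 with siCtrl, 9.26, 9.99 and 10.3 with siCyclin K#1, then 9.38, 9.24 and 9.60 with siCyclin K#2. All siCyclin K libraries were above siCtrl (log2 fold change 0.51 ± 0.065 (SE), adjusted p = 0.00029). Its paralog MED12L had 0.401, 0.475 and 0.457 with siCtrl, 0.274, 0.245 and 0.281 with siCyclin K#1, then 0.222, 0.160 and 0.194 with siCyclin K#2, lower in every siCyclin K library (log2 fold change -0.74 ± 0.19 (SE), adjusted p = 0.017), on 67 to 191 reads a library. That call was lost without siCtrl replicate 2 (adjusted p = 0.072) or 3 (adjusted p = 0.065), and 30.1% of its exon bases are shared with genes on the opposite strand. With siCyclin K#1 alone the call of MED12L (adjusted p = 0.025) was lost without siCtrl replicate 2 (adjusted p = 0.075) or 3 (adjusted p = 0.069). The FPKM of MED12 was 15.1 ± 0.997 times that of MED12L with siCtrl, 37.0 ± 3.49 and 49.9 ± 7.77 times with the siRNAs (SD, n = 3 each). It pairs a gene that rose with a gene that fell and has no test of its own. For MED13 over MED13L the means were 1.18 with siCtrl, 0.885 with siCyclin K#1 and 0.94 with siCyclin K#2. MED13 fell (log2 fold change -0.37 ± 0.062 (SE), adjusted p = 0.0018), and MED13L did not pass (log2 fold change 0.00090 ± 0.053 (SE), adjusted p = 1), with a 95% interval of -0.12 to 0.12.

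Of the elongation factors, 7 of 17 rose, 2 fell and 8 did not pass with both siRNAs together, and their median log2 fold change was 0.18, beside 0.0618 for all genes. The share called was 52.9%, beside 28.6% of all genes tested (17.0% higher, 11.5% lower) and 42.0% of those whose mean FPKM reached 1. NELFB (ENSG00000188986, chromosome 9, 137255173 to 137273546), a subunit of the complex that holds the polymerase near promoters, had an FPKM of 10.4, 10.8 and 11.2 with siCtrl, 21.8, 21.3 and 20.8 with siCyclin K#1, then 26.7, 23.7 and 25.6 with siCyclin K#2. All siCyclin K libraries were above siCtrl (log2 fold change 1.10 ± 0.090 (SE), adjusted p = 2.3e-05, a fold of 2.14). NELFA had 2.99, 3.09 and 3.21 with siCtrl, 5.15, 4.95 and 4.20 with siCyclin K#1, then 4.82, 4.12 and 4.59 with siCyclin K#2, also higher in each (log2 fold change 0.56 ± 0.093 (SE), adjusted p = 0.0015). NELFE went down, with 14.3, 11.1 and 13.2 with siCtrl, 10.1, 7.83 and 8.22 with siCyclin K#1, then 10.5, 8.39 and 8.70 with siCyclin K#2, below siCtrl in each siCyclin K library (log2 fold change -0.52 ± 0.12 (SE), adjusted p = 0.0079), and its feature also joins the microRNA gene MIR1236. With siCyclin K#2 its change (adjusted p = 0.019) was lost without siCtrl replicate 1 (adjusted p = 0.069) or 3 (adjusted p = 0.059), or without siCyclin K#2 replicate 2 (adjusted p = 0.067) or 3 (adjusted p = 0.062). The FPKM of NELFB was 0.85 ± 0.128 times that of NELFE with siCtrl, and 2.47 ± 0.280 and 2.77 ± 0.20 times with the siRNAs (SD, n = 3 each). This ratio pairs a gene that rose with a gene that fell, so its shift follows from those calls and has no test of its own. For siCtrl, siCyclin K#1 and siCyclin K#2, SUPT5H over SUPT4H1 was 2.15, 2.16 and 2.48, and SSRP1 over SUPT16H 1.61, 1.33 and 1.43. LEO1 over RTF1 was 3.75, 1.63 and 2.2, and POLR2A over POLR2D 18.3, 6.02 and 6.17. NELFCD rose with siCyclin K#1 (log2 fold change 0.29 ± 0.051 (SE), adjusted p = 0.0016) and differed between the siRNAs (adjusted p = 0.014), a difference lost after median-ratio rescaling.

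Neither subunit of DSIF, the partner of NELF, passed over both siRNAs. SUPT5H, its large subunit and a target of CDK9, had an FPKM of 28.2, 28.2 and 28.9 with siCtrl, 28.5, 28.9 and 29.4 with siCyclin K#1, then 26.9, 26.7 and 27.5 with siCyclin K#2. Over both siRNAs the log2 fold change was -0.025, with a 95% interval of -0.14 to 0.094. With siCyclin K#1 alone the value of SUPT5H, 0.025, turned to -0.095 after median-ratio rescaling (adjusted p = 0.046). With siCyclin K#2 its libraries all lay below siCtrl (log2 fold change -0.074 ± 0.030 (SE), adjusted p = 0.092). That fall passed after median-ratio rescaling (-0.122, adjusted p = 0.02) and quantile normalization (-0.119, adjusted p = 0.017). SUPT4H1, the small subunit, fell with siCyclin K#2 (log2 fold change -0.27 ± 0.076 (SE), adjusted p = 0.022) and differed between the siRNAs (adjusted p = 0.019, lost after median-ratio rescaling), but 89.9% of its exon bases are shared with other genes and its feature joins RNF43.

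In the PAF1 complex, which travels with the polymerase and supports histone modification, LEO1 and RTF1 moved apart. LEO1 had an FPKM of 48.3, 50.3 and 49.2 with siCtrl, 30.6, 33.4 and 33.6 with siCyclin K#1, then 37.7, 37.5 and 39.2 with siCyclin K#2. It was lower with each siRNA (log2 fold change -0.48 ± 0.081 (SE), adjusted p = 0.0017) and lowest with siCyclin K#1. RTF1, which promotes ubiquitination of histone H2B, had 12.7, 14.3 and 12.4 with siCtrl, 22.0, 19.0 and 19.2 with siCyclin K#1, then 18.1, 16.2 and 17.8 with siCyclin K#2. All siCyclin K libraries were above siCtrl (log2 fold change 0.50 ± 0.095 (SE), adjusted p = 0.0032). PAF1 itself passed with siCyclin K#2 (log2 fold change 0.20 ± 0.054 (SE), adjusted p = 0.02), a call lost after median-ratio rescaling, with a difference between the siRNAs that passed after that rescaling and not before it (adjusted p = 0.076), and CDC73 did not pass with either.

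Of the 4 genes of FACT, SUPT6H and IWS1, 3 rose and none fell over both siRNAs. Among all genes tested, 28.6% passed (17.0% higher, 11.5% lower), and among those whose mean FPKM reached 1, 42.0%. Whether these 4 genes rose as a group was not tested. Both FACT subunits rose, SUPT16H by more (log2 fold change 0.41 ± 0.046 (SE), adjusted p = 0.00015) than SSRP1 (log2 fold change 0.18 ± 0.056 (SE), adjusted p = 0.037). With siCyclin K#1, the smaller change of SSRP1 (log2 fold change 0.11 ± 0.025 (SE), adjusted p = 0.0059) turned below 0 after median-ratio rescaling, where its change over both siRNAs did not pass either. IWS1, a partner of SUPT6H, had an FPKM of 12.1, 11.1 and 9.96 with siCtrl, 19.3, 17.0 and 16.8 with siCyclin K#1, then 18.8, 16.6 and 18.6 with siCyclin K#2. It was higher in every siCyclin K library (log2 fold change 0.69 ± 0.082 (SE), adjusted p = 0.00021). SUPT6H, a histone chaperone and elongation factor, had 26.3, 26.2 and 25.7 with siCtrl, 25.6, 26.9 and 27.4 with siCyclin K#1, then 24.8, 24.7 and 26.5 with siCyclin K#2, overlapping throughout (log2 fold change -0.0063 ± 0.055 (SE), adjusted p = 0.95), with a 95% interval of -0.13 to 0.12. TCEA2, a form of TFIIS, the factor that lets a stalled polymerase cut its RNA and resume, had 3.26, 3.09 and 2.70 with siCtrl, 5.21, 4.36 and 4.97 with siCyclin K#1, then 4.55, 4.05 and 5.89 with siCyclin K#2. It rose with both siRNAs (log2 fold change 0.66 ± 0.12 (SE), adjusted p = 0.0033).

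**Figure D4:**
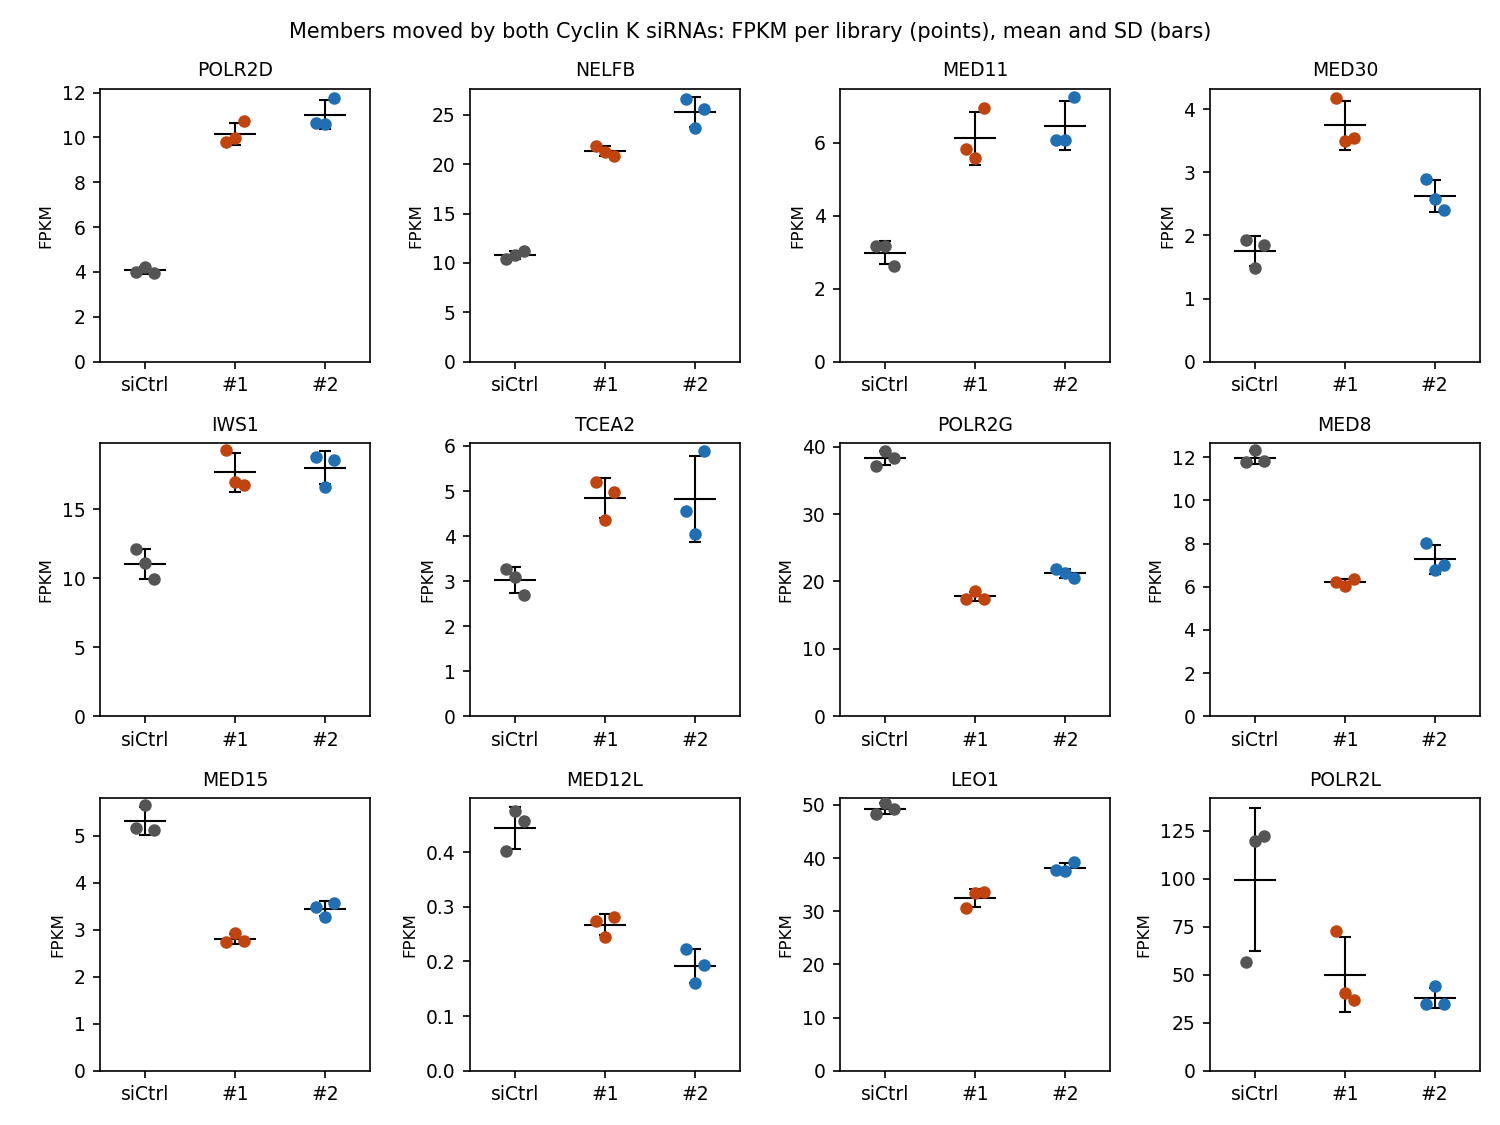
FPKM in each library (points), with mean and SD of 3 libraries (bars), of 12 members called with both siRNAs; each panel starts at 0. POLR2D, NELFB, MED11, MED30, IWS1 and TCEA2 stand above siCtrl and POLR2G, MED8, MED15, MED12L and LEO1 below it in all 6 siCyclin K libraries, while POLR2L overlaps. The siCyclin K#1 calls of POLR2L and MED12L were lost under several alternatives.

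Because each siRNA is a reagent of its own, the siRNAs were also compared directly. At an adjusted p under 0.05, the siCyclin K#1 libraries stood above those of siCyclin K#2 in 10 members and below them in 15, 43.1% of the members beside 29.4% of all genes (17.1% higher, 12.3% lower) and 44.5% of those whose mean FPKM reached 1. After median-ratio rescaling the split was 6 higher and 22 lower. At a fold change over 1.5, 2 were higher and 5 lower, beside 13.2% of all genes (8.35% higher, 4.8% lower), and this became 1 and 5 after median-ratio rescaling and 2 and 3 after quantile normalization. None passed a fold change over 3 with p under 0.01, against 1.53% of all genes. CCNK itself did not differ between the siRNAs beyond its spread (log2 fold change -0.056 ± 0.097 (SE), adjusted p = 0.73).

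The 5 genes over 1.5-fold lower with siCyclin K#1 were POLR2B, CTR9, MED14, MED1 and MED27, and for none of them did the change with siCyclin K#2 pass. MED14 showed the widest gap, its siCyclin K#1 libraries at 6.48 to 6.80 and the rest at 10.8 to 12.2 (log2 fold change -0.76 ± 0.052 (SE), adjusted p = 1.5e-05). CTR9, the scaffold of the PAF1 complex, had an FPKM of 24.4, 23.2 and 23.1 with siCtrl, 14.6, 15.7 and 14.6 with siCyclin K#1, then 22.3, 22.7 and 23.1 with siCyclin K#2. It fell with siCyclin K#1 (log2 fold change -0.65 ± 0.042 (SE), adjusted p = 3.1e-06), and with siCyclin K#2 the change was log2 fold change -0.053 ± 0.042 (SE), adjusted p = 0.38 (log2 fold change -0.60 ± 0.042 (SE), adjusted p = 1.5e-05 between the siRNAs). The siCyclin K#2 libraries of CTR9 also lay below siCtrl, by a small amount.

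MED1 had 11.9, 12.4 and 12.9 with siCtrl, 7.91, 9.41 and 8.92 with siCyclin K#1, then 13.7, 12.6 and 13.7 with siCyclin K#2. It was low with siCyclin K#1 (log2 fold change -0.51 ± 0.070 (SE), adjusted p = 0.00037) and overlapped siCtrl with siCyclin K#2 (log2 fold change -0.60 ± 0.070 (SE), adjusted p = 0.00028 between the siRNAs). MED27 of the tail had 11.6, 12.1 and 10.7 with siCtrl, 7.36, 7.87 and 7.62 with siCyclin K#1, then 11.7, 10.9 and 12.3 with siCyclin K#2, with the same order (log2 fold change -0.58 ± 0.064 (SE), adjusted p = 8.8e-05 for siCyclin K#1; log2 fold change -0.61 ± 0.064 (SE), adjusted p = 0.00016 between the siRNAs). For these 5 genes the change over both siRNAs did not pass when the 6 siCyclin K libraries were taken as 1 group (adjusted p = 0.15 to 0.45), and all 5 passed when it was taken as the mean of the contrasts of both siRNAs in a fit of 3 groups (adjusted p = 5.9e-05 to 0.025). The fibroblast markers given above were also higher with siCyclin K#1, and their part in this pattern was not tested.

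The 2 genes over 1.5-fold higher with siCyclin K#1 were TCEA1 and MED23. TCEA1, the widely expressed form of TFIIS, had 18.6, 19.2 and 18.6 with siCtrl, 22.2, 23.3 and 23.1 with siCyclin K#1, then 14.4, 13.3 and 13.6 with siCyclin K#2. It rose with siCyclin K#1 (log2 fold change 0.28 ± 0.041 (SE), adjusted p = 0.0005), fell with siCyclin K#2 (log2 fold change -0.45 ± 0.041 (SE), adjusted p = 4.4e-05) and differed between them (log2 fold change 0.73 ± 0.041 (SE), adjusted p = 4.7e-06), with no overlap of any of the groups. MED23, a tail subunit bound by ELK1, had 3.95, 3.30 and 3.52 with siCtrl, 4.31, 5.66 and 5.15 with siCyclin K#1, then 3.13, 3.42 and 2.99 with siCyclin K#2. It rose with siCyclin K#1 (log2 fold change 0.47 ± 0.11 (SE), adjusted p = 0.0075) and overlapped siCtrl with siCyclin K#2. Of the genes that moved with both siRNAs, several did not differ detectably between them: for POLR2D the 95% interval of the difference was -0.25 to 0.023, for MED11 -0.34 to 0.18, for IWS1 -0.23 to 0.17 and for SUPT16H -0.10 to 0.044 on the log2 scale, none of which passed.

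**Figure D5:**
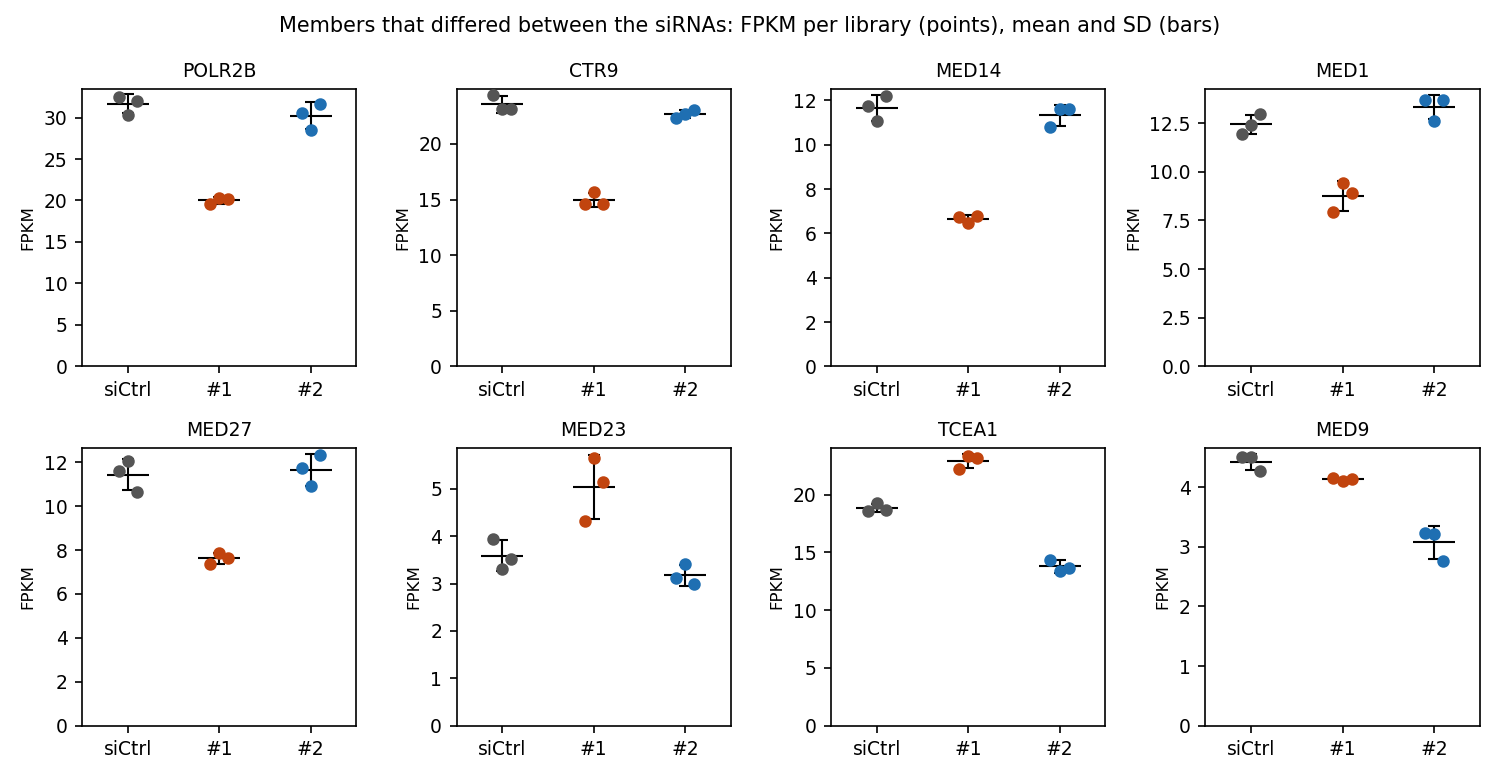
FPKM in each library (points), with mean and SD of 3 libraries (bars), of 8 members that differed between the siRNAs; each panel starts at 0. POLR2B, CTR9, MED14, MED1 and MED27 were called lower than siCtrl with siCyclin K#1 alone. MED23 is high with it, MED9 is low with siCyclin K#2, and TCEA1 lies above siCtrl with siCyclin K#1 and below it with siCyclin K#2.

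In 8 members the highest library was over 1.5 times the lowest of the same group: MED18, MED20, MED21, MED22, MED28, MED29, CDC73 and POLR2L. MED29 of the tail had the widest spread, with 12.0, 12.5 and 12.4 with siCtrl, 14.7, 2.18 and 15.3 with siCyclin K#1, then 2.73, 12.6 and 13.0 with siCyclin K#2. Library 2 of siCyclin K#1 and library 1 of siCyclin K#2 lay far below the other 7, and the change was not called (log2 fold change -0.65 ± 0.65 (SE), adjusted p = 0.5). MED18 of the head had 4.97, 1.88 and 6.46 with siCtrl, 3.60, 10.4 and 3.11 with siCyclin K#1, then 2.60, 9.02 and 2.61 with siCyclin K#2, high in library 2 of each siCyclin K group and low in library 2 of siCtrl. Only POLR2L of these 8 was called. Without them, 26 of 50 members (52.0%) passed over both siRNAs, and without the 7 members that share a feature with another gene, 24 of 51 (47.1%) did. Of all genes tested 28.6% passed, and of those whose mean FPKM reached 1, 42.0%.

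The structure of the genes was set beside their change. Over the 58 members, the rank correlation (Spearman's rho, across genes, which are not independent replicates) of the change over both siRNAs with the span of the gene was 0.087, with the exon length 0.028 and with the number of exon blocks 0.10. Across 19826 tested genes the correlation with span was 0.170. Of the longest members, MED12L (351376 bases) fell and MED13L (323467 bases) did not pass, and of the short ones MED11 (2183 bases) rose and POLR2K (3419 bases) fell. With the siCtrl level the correlation was -0.331, a measure that shares the siCtrl libraries with the change.

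Genes around these complexes were counted from lists of general transcription factors, Mediator kinases, other CTD and elongation factors and subunits of the other polymerases. The shares called over both siRNAs were 41.9%, 66.7%, 33.3% and 29.4% of the genes tested in these lists, in that order. Of all genes tested 28.6% passed (17.0% higher, 11.5% lower), and of those whose mean FPKM reached 1, 42.0%. Of 31 general transcription factors tested of 33 listed, 6 rose and 7 fell over both siRNAs, from TAF3 (log2 fold change 0.86 ± 0.18 (SE), adjusted p = 0.0057) to TAF13 (log2 fold change -0.97 ± 0.24 (SE), adjusted p = 0.013), both subunits of TFIID. Of the 3 kinase partners of MED12, CDK19 (log2 fold change 1.38 ± 0.16 (SE), adjusted p = 0.00018) and CDK8 (log2 fold change 0.59 ± 0.067 (SE), adjusted p = 0.00017) rose beside MED12, and CCNC did not pass. CDK19 had an FPKM of 1.29, 1.71 and 2.00 with siCtrl, 5.24, 4.89 and 5.03 with siCyclin K#1, then 4.14, 3.64 and 3.91 with siCyclin K#2. Its siCyclin K libraries all lay above siCtrl.

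Of 15 further CTD and elongation factors tested of 16 listed, 2 rose and 3 fell. RPRD1A, which binds the CTD, had an FPKM of 10.8, 11.6 and 11.6 with siCtrl, 2.77, 2.49 and 2.11 with siCyclin K#1, then 3.57, 3.37 and 3.50 with siCyclin K#2. It fell more than any member (log2 fold change -1.92 ± 0.16 (SE), adjusted p = 3e-05) and passed a fold change over 3 with p under 0.01. SSU72, a CTD phosphatase, was the highest of those that rose (log2 fold change 0.45 ± 0.13 (SE), adjusted p = 0.025). Of 17 genes of RNA polymerases I and III tested of 19 listed, 3 rose and 2 fell, from POLR3GL (log2 fold change 1.53 ± 0.19 (SE), adjusted p = 0.00028), whose feature joins an antisense RNA, to POLR1C (log2 fold change -0.55 ± 0.087 (SE), adjusted p = 0.0012).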

How the data were processed

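RNA of A549 cells (3 libraries per group) was extracted with Trizol and sequenced as paired reads. The deposited files give FPKM per assembled gene, computed by the authors with StringTie 1.3.3b. Of 56252 features per library, 25125 without a reference gene were not used as genes, and rows of 1 gene were summed. FPKM scaled back by exon length and depth gave whole reads, within 0.05, for 78.092% of values above 0. Because the values are not counts, log2(FPKM + 0.1) was tested with limma 3.58.1 (R 4.3.3, empirical Bayes with trend) over the 21048 genes that reached an FPKM of 0.1 in 3 or more libraries, and p-values were adjusted by the Benjamini-Hochberg method over all of them. Fold changes on this scale understate those of low genes. The comparison over both siRNAs used 2 groups, the others 3 groups. The test was checked on simulated data. The members and gene lists were chosen with earlier results of these data known. Values in every library were given, by rule, for POLR2A, SUPT5H and MED12, for members with an adjusted p under 0.05 and a fold change over 1.5 in any of the 4 comparisons, and for the highest and the lowest member over both siRNAs in each role of at least 4 members. Of other lists, the highest and the lowest gene called were named. MED18 and MED29 were chosen after their values were seen. Alternatives covered the pseudocount, filter, scaling, variance model, grouping and single libraries.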

Additional observations from a re-analysis of the deposited data

Results flagged for a closer look

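POLR2L stood out for 1 library far from the others: among its 6 siCyclin K libraries the highest (72.5 FPKM) lay at a gap of 0.754 of their whole range from the next. It was 1 of 58 members looked at, and chance marks about 1 in 20 groups.

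For 17 of the 31 members named by rule, the direct test between the siRNAs passed in limma at an adjusted p under 0.05. The naming rule itself took in the 7 members over 1.5-fold in this same test, so this count is no result of its own. Of all genes tested 29.4% passed, and of those whose mean FPKM reached 1, 44.5%. As log2 differences of siCyclin K#1 minus siCyclin K#2, values below 0 were found for MED14 (-0.76), MED27 (-0.61), CTR9 (-0.60), MED1 (-0.60), POLR2B (-0.59), MED15 (-0.29), MED19 (-0.25), NELFB (-0.25), POLR2G (-0.25), LEO1 (-0.23), MED8 (-0.22) and POLR2A (-0.15). Values above 0 were found for TCEA1 (0.73), MED23 (0.64), MED30 (0.50), MED25 (0.39) and SUPT5H (0.10). For MED8, MED19, MED30 and SUPT5H the call was lost under at least 1 choice of left-out library. The difference of POLR2A was -0.058 after quantile normalization (adjusted p = 0.23) and was lost in a fit without a variance trend (adjusted p = 0.065), and that of SUPT5H was 0.027 after median-ratio rescaling (adjusted p = 0.61).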

How the results depend on the processing

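Counts of members over both siRNAs went from 27 to 41 at an adjusted p under 0.05 when the change was taken as the mean of both siRNA contrasts in 3 groups. With a pseudocount of 1, members over 1.5-fold went from 19 to 12 with siCyclin K#1, from 11 to 7 with siCyclin K#2 and from 7 to 2 between the siRNAs, and the last was 4 with a pseudocount of 0.5. Leaving out 1 library at a time gave 20 to 28 members over both siRNAs (10 to 13 over 1.5-fold), 37 to 41 with siCyclin K#1 (16 to 19), 27 to 35 with siCyclin K#2 (10 to 12, and 0 to 1 over 3-fold) and 20 to 25 between the siRNAs. Between the siRNAs, members over 1.5-fold ranged from 4 to 7, with 4 without siCyclin K#1 replicate 1 or siCyclin K#2 replicate 3. The shares of all genes under these alternatives are not given here. These counts, the 41 among them, therefore cannot be set against the shares of all genes in the main fit.

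Signs turned mostly in values that had not passed. Between the siRNAs, IWS1 was 0.005 after quantile normalization and -0.092 to 0.009 with 1 library left out, MED11 -0.171 to 0.004, NELFE -0.186 to 0.018, CCNK -0.121 to 0.016 and TCEA2 -0.098 to 0.167. After median-ratio rescaling MED12 was -0.008 and TCEA2 -0.053 between the siRNAs, MED27 -0.020 with siCyclin K#2, and SUPT6H -0.088 and SUPT5H -0.095 with siCyclin K#1. After quantile normalization TCEA2 was -0.021 between the siRNAs and MED27 -0.044 with siCyclin K#2. With 1 library left out, MED27 with siCyclin K#2 was -0.020 to 0.076 and SUPT6H over both siRNAs -0.022 to 0.008. The cause was not tested. Of the values of the 31 members named by rule under alternatives, 2332 kept direction and side of the threshold, 97 lost the call, 25 gained it and 22 turned. SSRP1, which is not among these 31, also turned with siCyclin K#1 after median-ratio rescaling.

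Same-numbered libraries showed no detectable shared deviation (correlations -0.0711 to 0.0379, beside -0.0392 to 0.0569 for libraries of different number). Such low values cannot exclude a pairing that shifts few genes, so whether the numbers pair the samples is not known. With the replicate number as a block, 24 members passed over both siRNAs, 41 with the first siRNA, 34 with the second and 24 between them. The shares of all genes in that fit are not given here. Unnamed loci near members were not run, since the files give them no coordinates. Whether reads were counted by strand is not given in the sources used here, which limits members that overlap other genes. In 11 members over 10% of exon bases are shared, among them POLR2I (79.6%), MED28 (32.1%), MED25 (19.8%), MED17 (13.5%) and MED4 (13.0%).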
